A study of Mus musculus with 12 samples.

Results

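The cytosolic ribosome is built from ribosomal RNA and about as many small proteins as there are genes named Rpl (large subunit) and Rps (small subunit). The members were found by symbol. They are the probe sets whose only annotated gene symbol starts with Rpl or Rps followed by a digit or by p, without the protein kinases of the Rps6k family and without pseudogenes. A pseudogene was recognised by a hyphen, ps and digits at the end of its symbol, because the same ending read without the hyphen would also have removed true genes such as Rps10. The rule gave 104 probe sets for 49 genes, of 34945 probe sets with 1 symbol (18193 genes). They comprise 22 large-subunit genes, 20 small-subunit genes and 7 paralogs or other proteins that share the name (Rpl3l, Rpl7l1, Rpl22l1, Rpl39l, Rps4l, Rps27l and Rps19bp1). The first 42 are called core genes here. A further 31 ribosomal protein symbols occur only on probe sets that carry several symbols, and the rule leaves them out.

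The arrays hold polyA RNA of CD8 T cells from spleens of male mice, with 3 arrays in each of 4 groups and 3 mice of each genotype. The control mice (WT) had the genotype Cd4-Cre/Scap+/+ and their littermates (KO) Cd4-Cre/Scapfl/fl, so that both carried the Cre recombinase, driven by the Cd4 promoter, which is active in developing T cells and acts on the floxed gene there. Scap escorts the SREBP transcription factors of lipid synthesis to the Golgi. The cells were studied at quiescence (T0) and 6 h into activation (T6) with antibody to CD3 bound to the plate and antibody to CD28 in solution. Ages are not given in the sources used here. The comparisons ask how the genes respond to activation in each genotype and how the genotypes differ at each time.

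Ribosomal proteins are needed in matching amounts and are assembled with ribosomal RNA in the nucleolus. Their genes are transcribed from strong promoters that often lack a TATA box, and their mRNAs begin with a run of pyrimidines, the 5′ terminal oligopyrimidine (TOP) motif. The kinase mTORC1, acting through the proteins 4E-BP and Larp1, lets TOP mRNAs onto ribosomes or holds them back. T cells leaving quiescence load stored ribosomal protein mRNAs onto ribosomes in this way, a step that a measurement of mRNA abundance does not see.

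Of the 49 genes, 43 had at least 1 promoter window in RefSeq (assembly GRCm38.p6), 51 windows in all, each reaching from 250 bases before the annotated start to 50 after it. A TOP-like run, a C followed by at least 4 further C or T within 15 bases of the start, was present in 26 of 43 core windows (60.5%) and in 36.4% of all 32851 windows. The letters CCGGAAG, which ETS factors such as GABP bind, were found on either strand in 18 core windows (41.9%, against 8.86% of all windows). GGGCGG, an Sp1 site, was in 53.5% against 35.7%, and TATAAA in 11.6% against 13.6%. These are matches of letters and were not tested as sites. The 30 bases around the annotated start are shown for 4 core genes that were not called on activation in either genotype, to show what the run looks like, with the run in capitals.

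Rpl7a, chr2:26910792-26910821, plus strand: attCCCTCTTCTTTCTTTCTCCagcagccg
Rpl35, chr2:39005117-39005146, minus strand: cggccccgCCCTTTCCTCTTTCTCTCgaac
Rplp2, chr7:141447636-141447665, plus strand: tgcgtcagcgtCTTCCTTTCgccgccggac
Rps6, chr4:86857353-86857382, minus strand: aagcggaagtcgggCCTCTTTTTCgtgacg

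The same stretch follows for the 5 members to which the results below return, the 3 that rose on activation of WT cells and the core genes Rps27 and Rps25. Capitals again mark a TOP-like run, and lines without capitals have none in this window. Rps27l has a second annotated start, whose window holds no such run and is not shown.

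Rps19bp1, chr15:80264292-80264321, minus strand: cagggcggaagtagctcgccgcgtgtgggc
Rpl7l1, chr17:46782642-46782671, minus strand: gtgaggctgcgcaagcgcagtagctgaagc
Rps27l, chr9:66946071-66946100, plus strand: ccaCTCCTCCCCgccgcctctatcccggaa
Rps27, chr3:90213634-90213663, minus strand: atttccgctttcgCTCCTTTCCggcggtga
Rps25, chr9:44407699-44407728, plus strand: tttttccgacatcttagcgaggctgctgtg

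Signals are given as log2(signal + 16), and a change is the difference of group means on that scale. For a gene with several probe sets the one of highest mean signal stood for it, and 47 of the 49 genes passed the filter on low signals, among them 41 core genes. Rps16, whose only probe set here lay between 4.06 and 5.199, and the muscle paralog Rpl3l, between 4.18 and 5.52, did not pass. A gene was called at a limma p, adjusted by Benjamini-Hochberg over the 13156 genes tested, under 0.05. Arrays of a group correlated at 0.969 to 0.978 over all probe sets, and arrays of different groups at 0.949 to 0.977. T cell activation itself was plain, since 7 of 8 activation markers rose in each genotype. Scap was lower in the mean of the KO arrays at both times (11.01 ± 0.23 against 11.26 ± 0.25 at T0 and 11.10 ± 0.04 against 11.57 ± 0.02 at T6, SD, n = 3), but its probe set was not called (adjusted p = 0.593 and 0.273). Where that probe set lies relative to the floxed exons was not analysed here.

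On activation the signals of the bright core ribosomal protein genes stayed within a narrow range. In WT cells 0 of 41 core genes were called between T0 and T6, while 25.1% of all genes tested were called (11.3% higher and 13.8% lower), and 5 of the 47 members had an unadjusted p under 0.05, beside 4798 of the 13156 genes. For the 33 core genes whose mean signal was 14 or above, the changes lay between -0.11 (Rpl11) and 0.07 (Rpl27), and their 95% intervals between -0.44 and 0.40. Of these genes 17 belong to the large subunit, among them Rpl4 (-0.03), Rpl7a (0.05) and the stalk proteins Rplp0 (0.02) and Rplp2 (0.00), and 16 to the small subunit, among them Rps3a1 (-0.02), Rps2 (0.02) and Rps7 (-0.03). The median change was -0.03 over the 47 members and -0.06 over all genes tested.

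In KO cells the signals of the same 33 genes changed by between -0.14 (Rpl10a) and 0.04 (Rpl41), with intervals between -0.46 and 0.36, and 0 were called, beside 20.9% of all genes (10.4% higher and 10.4% lower). At an unadjusted p under 0.05 there were 8 of 47 members and 4309 of 13156 genes. The median over the members was -0.04, and that over all genes tested was 0.00. Centring each array on its median moved the median of all genes in WT from -0.06 to 0.05 and its calls from 1492 higher and 1810 lower to 1909 and 1142, and turned the members' median to 0.08 in WT and 0.02 in KO. Each array had been scaled to the same mean, so a change in the amount of RNA per cell leaves no trace in these values.

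**Figure D1:**
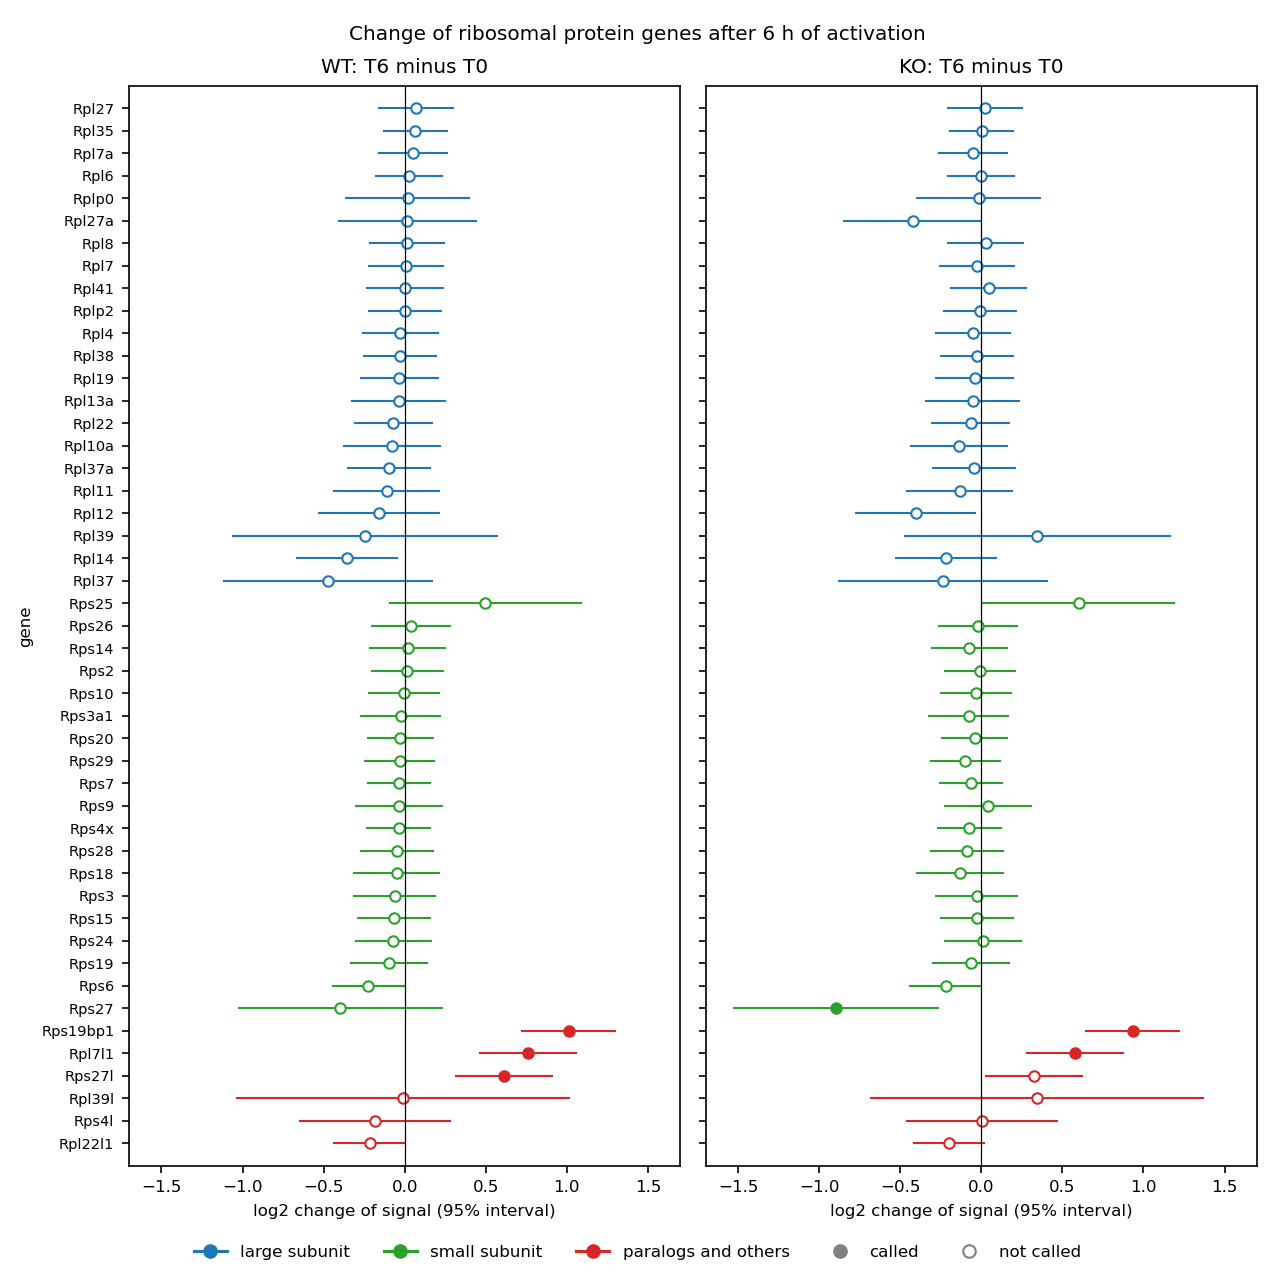
Log2 change of signal from T0 to T6 for the 47 tested members in WT (left) and KO (right), with 95% intervals from the limma fit; filled points were called. The 33 bright large-subunit (blue) and small-subunit (green) genes lie between -0.14 and 0.07, the 8 dimmer ones spread from -0.89 to 0.60, and the filled points are Rps19bp1, Rpl7l1 and Rps27l in WT and Rps19bp1, Rpl7l1 and Rps27 in KO.

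On single arrays, the median over the 33 genes was 15.23, 15.01 and 14.99 on the WT T0 arrays and 15.07, 15.02 and 15.13 on the WT T6 arrays. In KO it was 15.05, 14.91 and 15.10 at T0 and 15.03, 14.95 and 14.995 at T6. The groups overlap throughout, and the highest value belongs to WT T0 replicate 1, whose brightest probe set was also the brightest of any array (log2 15.76, against 15.39 to 15.65 on the others). Without that array the members' median change in WT was 0.05.

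These probe sets lie at percentiles 99.5 to 99.998 of their arrays, and up to a mean of 15.53, close to the brightest signal on the arrays. Genes that are not members but share this range still moved. Of the 83 other tested genes with a mean of 14 or above, 15 (18.1%) were called in WT and 11 (13.3%) in KO, and their median absolute change was 0.12 in WT, against 0.04 for the 34 members there. At 15 and above, where 20 members and 10 other genes lie, 1 of the others was called in WT and 0 in KO, and the median absolute change was 0.03 in each set in WT. How far bright signals are compressed was not tested.

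**Figure D2:**
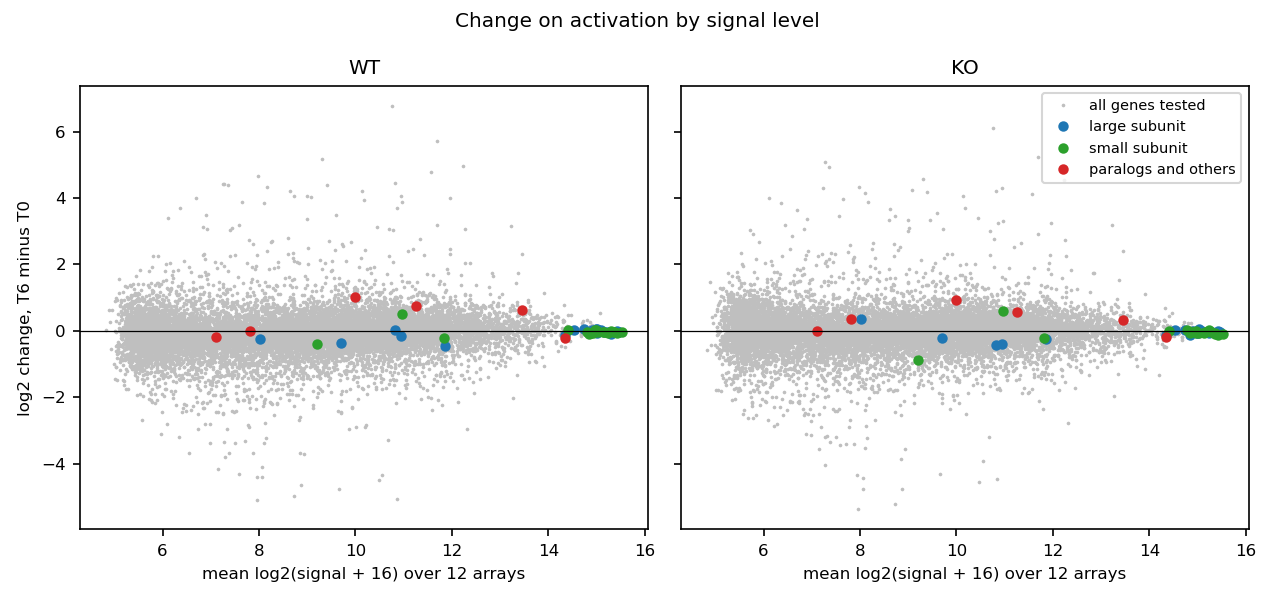
Log2 change from T0 to T6 against mean log2(signal + 16) over the 12 arrays for all 13156 tested genes (grey) and the members (coloured by subunit) in WT and KO. Most members lie at the far right, near 0, and the members at lower signal scatter more widely.

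The 8 core genes with a mean below 14 (Rpl12, Rpl14, Rpl27a, Rpl37, Rpl39, Rps6, Rps25 and Rps27) varied more. Their changes ran from -0.47 (Rpl37) to 0.50 (Rps25) in WT and from -0.89 (Rps27) to 0.60 (Rps25) in KO. The median residual SD of these genes was 0.30, against 0.11 for the 33 others. Rps27, a zinc-finger protein of the small subunit, was the only core gene called on activation in either genotype. Its KO values were 9.82, 9.70 and 9.57 at T0 and 9.43, 8.58 and 8.39 at T6. All T6 arrays lie below all T0 arrays, and the change was -0.89 (SE 0.28, limma adjusted p = 0.048).

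In WT the Rps27 values were 9.60, 9.14 and 9.36 at T0 and 9.21, 8.46 and 9.24 at T6. These groups overlap, and the change of -0.40 (SE 0.28, adjusted p = 0.353) was not called. The difference between the genotypes' changes was -0.50 (SE 0.40, adjusted p = 0.9997) and was not called either. The KO call was held in 10 of 25 alternative analyses (adjusted p between 0.010 and 0.162). It survived leaving out WT T6 replicate 2 (adjusted p = 0.032) or KO T6 replicate 1 (change -1.21, adjusted p = 0.010) and was lost without any other of the 12 arrays (adjusted p at least 0.055; -0.69 and 0.162 without KO T6 replicate 3).

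Other low-signal core genes crossed the threshold in single reanalyses. Rpl37 fell in WT with the replicate number as a block (-0.47, adjusted p = 0.027, against 0.274 without it). Rpl14 fell in WT without WT T0 replicate 1 (-0.48, adjusted p = 0.036, against -0.36 and 0.087 with it). Rpl27a fell in KO without KO T6 replicate 2 (-0.64, adjusted p = 0.020, against -0.42 and 0.152 with it). The bright Rpl22 fell in WT when a gene's probe sets were averaged (-0.28, limma adjusted p = 0.042). That average takes in a dimmer probe set, whose WT mean went from 11.21 to 10.60, while the brightest changed by -0.07.

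The members that rose were not core subunits but proteins related to them. Rps19bp1, a nucleolar protein that binds Rps19 and is known as an activator of the deacetylase SIRT1, had the largest change of any member. Its WT values were 9.56, 9.47 and 9.39 at T0 and 10.51, 10.39 and 10.56 at T6. In KO they were 9.48, 9.76 and 9.40 at T0 and 10.67, 10.27 and 10.49 at T6. In each genotype every activated array lies above every quiescent array. It rose 2.02-fold in WT (log2 1.01, SE 0.13, adjusted p = 0.00040) and 1.91-fold in KO (log2 0.93, SE 0.13, adjusted p = 0.00079).

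Rpl7l1 encodes a relative of Rpl7 whose yeast counterpart works in assembly of the large subunit. Its WT values were 10.57, 10.89 and 10.92 at T0 and 11.64, 11.44 and 11.59 at T6, and its KO values 10.90, 11.18 and 11.09 at T0 and 11.79, 11.45 and 11.66 at T6. Again the times do not overlap in either genotype. It rose by 0.76 in WT (SE 0.13, adjusted p = 0.0025) and by 0.58 in KO (SE 0.13, adjusted p = 0.012). The gene has 3 probe sets, and each was called higher in each genotype when tested on its own, with changes of 0.64, 0.76 and 0.84 in WT and 0.58, 0.59 and 0.72 in KO. Its relative Rpl7 changed by 0.01 and -0.03 (not called). Without KO T6 replicate 1 the KO value was 0.50 (adjusted p = 0.0505), and with the replicate number as a block its adjusted p was 0.0517, so that the KO call was lost in each case.

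Rps27l, a paralog of Rps27 known as a target of p53, rose in WT. Its WT values were 12.89, 13.04 and 13.19 at T0 and 13.65, 13.63 and 13.69 at T6, a change of 0.61 (SE 0.13, adjusted p = 0.0077). The 3 probe sets of the gene were each called, at 0.61, 0.71 and 0.76. In KO the values were 13.32, 13.70 and 13.18 at T0 and 13.72, 13.76 and 13.70 at T6, and the T0 replicate 2 reaches the activated level. The KO change of 0.32 (SE 0.13, adjusted p = 0.117) was not called, and without that array it was 0.48 (adjusted p = 0.016). The difference between the 2 changes, -0.29 (SE 0.19, adjusted p = 0.9997), was not called.

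The remaining paralogs were not called in either genotype. Rpl22l1, the paralog of Rpl22, read 14.45, 14.57 and 14.44 at T0 and 14.24, 14.26 and 14.32 at T6 in WT, groups that do not overlap (-0.22, SE 0.10, adjusted p = 0.142). In KO it read 14.32, 14.34 and 14.56 at T0 and 14.20, 14.10 and 14.32 at T6, which overlap (-0.20, adjusted p = 0.189). The times overlap in all the values that follow. Rpl39l, the paralog of Rpl39 known from testis, read 8.499, 8.26 and 7.71 at WT T0, 8.57, 7.81 and 8.06 at WT T6, 8.21, 6.76 and 6.99 at KO T0 and 8.48, 7.61 and 6.90 at KO T6 (changes of -0.01 and 0.34, SE 0.46). Rps4l, a paralog of Rps4x, read 7.53, 7.03 and 7.17 at WT T0, 7.24, 7.15 and 6.78 at WT T6, 6.83, 7.002 and 7.36 at KO T0 and 7.26, 6.72 and 7.22 at KO T6 (changes of -0.19 and 0.01, SE 0.21).

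**Figure D3:**
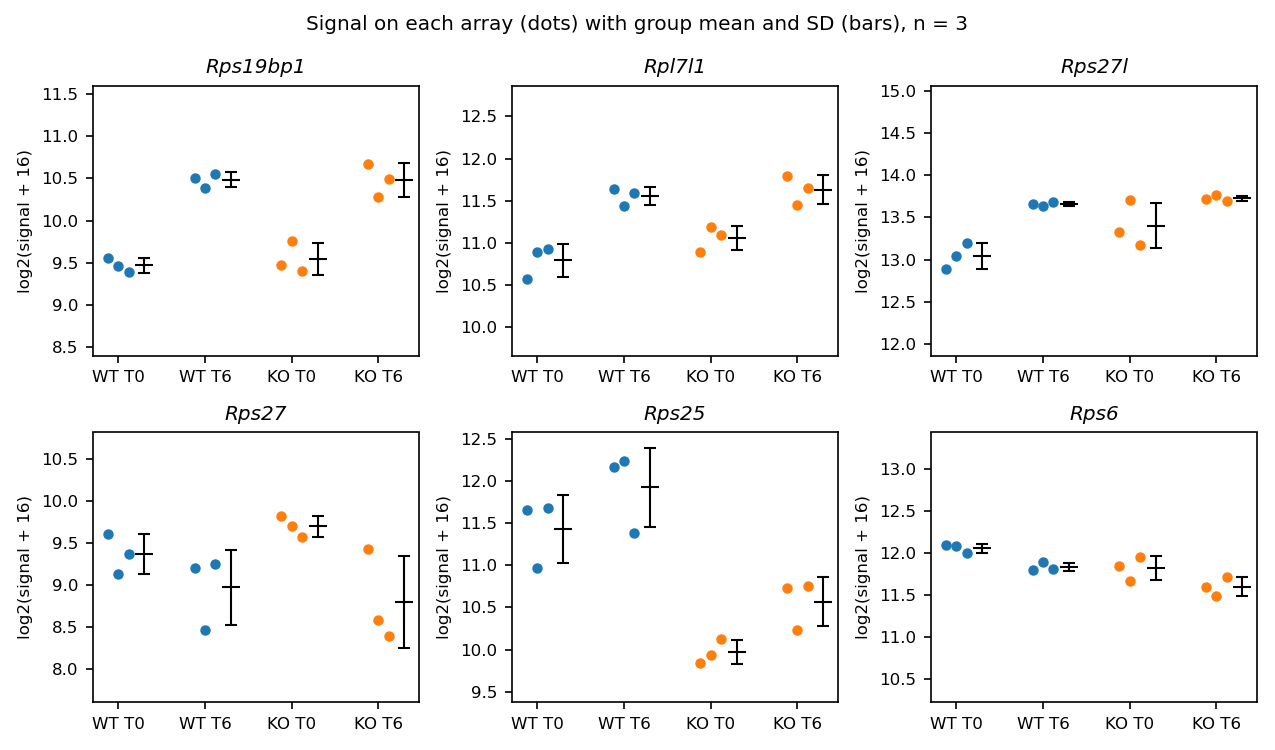
Log2(signal + 16) on each array for 6 members, with the group mean and SD of 3 arrays. The T6 arrays of Rps19bp1 and Rpl7l1 lie above the T0 arrays in each genotype, and the KO arrays of Rps25 lie below the WT arrays at each time.

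Many members are measured by several probe sets, and these do not report alike. Of the 99 member probe sets that passed the filter, 61 had a mean of 14 or above. In WT 0 of these were called, and in KO 1 fell (of Rpl13a, by 0.33), beside 22% and 19.6% of the 24539 probe sets tested on their own. Below 14, 10 of 38 rose and 3 fell in WT, and 7 rose and 2 fell in KO. Of those calls, 6 in WT belonged to core genes whose brightest probe set was not called.

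Rps10 shows this most clearly. A probe set of low signal gave 7.44, 7.27 and 7.30 at WT T0 and 8.005, 8.25 and 7.98 at WT T6, a rise of 0.74, while the brightest of the gene's 6 probe sets changed by 0.00. The same contrast held for a dim probe set of Rpl35, at 6.86, 6.79 and 6.71 before and 7.93, 7.18 and 7.35 after activation (0.70, against 0.07), and for one of Rps24, at 9.73, 10.15 and 9.999 before and 10.71, 10.56 and 10.52 after (0.64, against -0.07). In the other direction, a probe set of Rpl22 went from 11.22, 11.33 and 11.08 to 10.57, 10.77 and 10.45 (-0.61, against -0.07 for the brightest). Rps20 fell by 0.53 on a dim probe set (from a mean of 7.92 to 7.39), against -0.03 on its brightest. A probe set of Rpl13a went from 13.06, 13.28 and 13.27 to 12.82, 12.73 and 12.72 (-0.45), against -0.04 on its brightest.

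In KO the dim probe sets of Rpl35 and Rps10 also rose (0.79 and 0.56), and that of Rpl13a fell by 0.41. Those of Rps24 (0.42), Rpl22 (-0.28) and Rps20 were not called in KO, and the Rps20 value had the opposite sign there (0.27, from a mean of 7.33 to 7.60). A probe set of Rps9 rose by 0.32, from 10.11, 9.99 and 10.05 to 10.50, 10.23 and 10.38, while its brightest changed by 0.04. Which transcripts these probe sets report was not analysed here. Ribosomal protein genes have many processed pseudogenes. The suffix _x_at, which Affymetrix gives to sets whose probes can match other sequences, is on 40 of the 104 probe sets. None of the dim probe sets described here and in the paragraph above carries it. The brightest probe sets of Rpl13a, Rpl35, Rps20 and Rps24 do, and those of Rps10, Rpl22 and Rps9 do not. Leaving out the suffixes _s_at and _x_at kept 42 members and gave 5 calls in WT, with Rps24 risen and Rps20 fallen beside the 3 above.

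**Figure D4:**
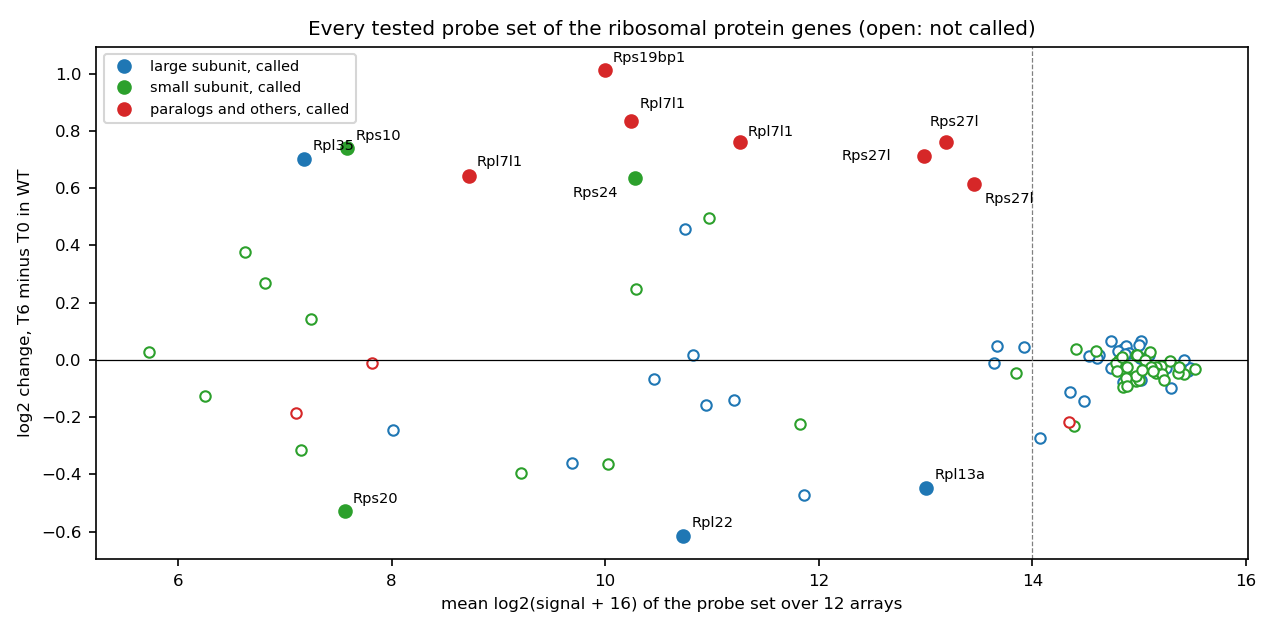
Log2 change from T0 to T6 in WT against mean log2(signal + 16) for each of the 99 tested member probe sets; filled points were called and carry the gene's name, and the dashed line marks a mean of 14. All 61 probe sets right of the line are open, and 13 of the 38 to its left are filled.

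The bright probe sets that the rule leaves out for their several symbols covered a like range. Of 110 probe sets that carry several symbols with at least 1 ribosomal protein among them, 77 had a mean of 14 or above. For these 77, the difference of group means between T6 and T0 ran from -0.11 to 0.10 in WT (median -0.01) and from -0.17 to 0.08 in KO, without a test. The range of the dimmer ones was not computed. In 38 of the 110 every symbol was that of a ribosomal protein gene or its pseudogene, and the others also carry symbols of other genes. Rpsa, the small-subunit protein and laminin receptor, changed by 0.01 and -0.05, and Fau, which encodes Rps30 fused to a ubiquitin-like protein, by -0.08 and -0.01 (neither called).

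Other mRNAs are known to carry a TOP motif. Of 20 tested, 3 rose and 1 fell in WT and 3 rose in KO, beside 11.3% and 10.4% of all genes higher, with medians of 0.02 and 0.05. Those that rose were the import receptor Ipo5 (0.75 in WT and 0.59 in KO), the initiation factor subunit Eif3l (0.46 and 0.39) and Btf3, a subunit of the nascent-chain complex (0.36 and 0.37). Hnrnpa1, an RNA-binding protein, fell by 0.34 in WT. The elongation factors Eef1a1 (0.01 and -0.02) and Eef2 (0.07 and 0.07) were not called.

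Ribosomal proteins are escorted to the nucleus and kept soluble by dedicated factors. Of 14 tested chaperones and import factors of ribosomal proteins, 7 rose in WT and 6 in KO, beside 11.3% and 10.4% of all genes higher. In this list 0 fell, and the medians were 0.45 and 0.37. Ipo5 and Nap1l1 belong to this list and to that of the other TOP mRNAs. Ipo4, an import receptor, rose by 1.03 in WT and 1.09 in KO. Its values were 10.34, 10.45 and 10.43 at WT T0 and 11.50, 11.38 and 11.44 at WT T6. Grwd1, the chaperone of Rpl3, rose by 0.88 and 0.98, and Ltv1, which accompanies the small subunit out of the nucleus, by 0.57 and 0.63. Tsr2, the chaperone of Rps26, rose by 0.71 in KO, while Rps26 itself changed by -0.02 there. In WT Tsr2 was also higher at T6, with 10.45, 10.04 and 10.14 at T0 and 10.61, 10.61 and 10.82 at T6. Its KO T0 values of 9.57, 9.70 and 9.66 lay below those of WT T0. The difference between its changes in the genotypes was not called. Whether this list differs from other genes was not tested.

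Of 14 tested regulators of TOP mRNAs and of mTORC1, 5 rose in WT and 4 in KO, beside the same 11.3% and 10.4% of all genes, and 0 fell, with medians of 0.26 and 0.13. Larp1, which binds the TOP motif, rose by 0.58 and 0.65, and Rheb, the GTPase that switches mTORC1 on, by 0.61 and 0.51. Larp4, which binds polyA tails, rose by 0.58 and 0.50, and the mTORC1 inhibitor Akt1s1 by 0.33 and 0.33.

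Of 9 transcription factors linked to ribosomal protein promoters, 3 rose in WT and 2 in KO, beside the same shares. Myc, which is also among the activation markers, rose by 1.38 (from 11.86, 11.89 and 11.83 to 13.29, 13.24 and 13.19) and by 1.27 in KO. Gabpb1, the partner subunit of the ETS factor GABP, rose by 0.33 and 0.60, while Gabpa (0.11 in WT), Sp1 (-0.06) and Yy1 (0.05) were not called. The remaining riser in WT was Zbtb17, from 8.77, 8.69 and 8.885 to 9.23, 9.32 and 9.27. In KO it went from 8.30, 8.75 and 8.79 to 8.90, 8.90 and 9.06 and was not called. Of 7 tested genes of ribosome surveillance and its link to p53, Cdkn1a, a cell-cycle inhibitor and p53 target, rose by 2.21 and 2.60, and Ltn1, the ligase that marks stalled nascent chains, fell by 0.48 and 0.61. Mdm2, the p53 ligase that free ribosomal proteins bind, was at -0.28 and 0.05 and not called.

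Activation also changed the mixture of cells or their RNA, which cannot be told apart in bulk samples. Of 13 tested myeloid markers 10 fell in each genotype, and their summed log2 signal went from 14.13 to 14.53 over the WT T0 arrays to 10.27 to 11.51 over the WT T6 arrays. Of 15 B cell markers 6 fell in WT and 0 in KO, and of 10 CD8 T cell markers 4 fell in WT and 5 in KO. The difference between the 3′ and 5′ control probe sets of Actb, a measure of RNA integrity, was 0.30 ± 0.08 at WT T0 and 0.50 ± 0.05 at WT T6, and 0.36 ± 0.14 and 0.71 ± 0.09 in KO (log2, SD, n = 3). Their part in the changes above was not tested.

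Between the genotypes 0 of the 47 members were called at T0 and 0 at T6, beside 0.038% of all genes tested at T0 (all lower in KO) and 0.0988% at T6 (0.0304% higher and 0.0684% lower). At an unadjusted p under 0.05 there were 3 members at each time, beside 1286 of 13156 genes at T0 and 1549 at T6. The shifts were small and mostly downward in KO. At T0 40 of 47 members were below 0, beside 6583 of 13156 genes, with a median of -0.09 (all genes 0.00). At T6 it was 40 of 47, beside 5641 of 13156 genes, with a median of -0.10 (all genes 0.04). The 33 bright core genes differed by -0.17 to 0.23 at T0 (intervals -0.44 to 0.61) and by -0.17 to 0.20 at T6 (intervals -0.46 to 0.57). The stalk protein Rplp0 was at the upper end at each time (0.23 and 0.20, SE 0.17, not called).

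These medians depend on the scaling and on single arrays. With quantile normalization they were -0.01 at T0 and 0.00 at T6, and with median centring -0.10 and -0.16. Without WT T0 replicate 1 the T0 median was -0.02, without KO T0 replicate 2 it was -0.03, and without WT T0 replicate 3 it was -0.13. Without KO T6 replicate 2 the T6 median was -0.05.

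The widest genotype difference of any member was that of Rps25, a small-subunit protein needed for initiation at certain internal ribosome entry sites. Its WT values were 11.65, 10.96 and 11.68 at T0 and 12.16, 12.23 and 11.39 at T6. Its KO values were 9.85, 9.94 and 10.12 at T0 and 10.72, 10.23 and 10.75 at T6. Every KO array lies below every WT array, across times as well. The difference was -1.46 at T0 (SE 0.26, 95% interval -2.05 to -0.87, limma adjusted p = 0.180) and -1.36 at T6 (SE 0.26, interval -1.95 to -0.77, adjusted p = 0.123), a 2.75-fold and 2.56-fold lower signal that was not called at either time.

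Rps25 is on chromosome 9, as is the targeted gene Scap, and it is measured by 1 probe set of middling signal. At T6 it was called in 1 of 24 alternatives, when the variance was allowed to follow the signal (adjusted p = 0.046, with a range over the alternatives of 0.046 to 0.350), and at T0 in 0 of 24 (0.067 to 0.426). Chromosome 9 holds 3 further members. Rpl14 differed by -0.13 and 0.01, Rpl4 by -0.10 and -0.13, and Rps27l by 0.36 (adjusted p = 0.456) and 0.07. With the genes of chromosome 9 left out, the genotype calls over all genes went from 5 to 0 at T0 and from 13 to 5 at T6. Whether genotype at linked loci bears on Rps25 was not tested.

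Rpl27a and Rps6 had the next smallest p-values at T6. Rpl27a read 11.004, 11.16 and 10.87 in WT T6 and 10.28, 10.85 and 10.15 in KO T6. The groups do not overlap, and the difference was -0.58 (SE 0.19, adjusted p = 0.296). At T0 it read 11.10, 11.06 and 10.82 in WT and 10.59, 11.01 and 10.96 in KO, which overlap (-0.14). Rps6, the small-subunit protein phosphorylated downstream of mTORC1, read 11.79, 11.89 and 11.81 in WT T6 and 11.60, 11.49 and 11.71 in KO T6, a difference of -0.23 (SE 0.10, adjusted p = 0.405), with no overlap. Its T0 values of 12.09, 12.08 and 11.99 in WT and 11.85, 11.66 and 11.95 in KO did not overlap either (-0.23, adjusted p = 0.497). Neither gene was called. Such a lack of overlap at T6 was not particular to these genes. Rpl7a (-0.17), Rpl35 (-0.14), Rps2 (-0.13) and further members were also lower in KO without overlap, and Rps27l (0.07) was higher without overlap. The share of all genes without overlap was not counted.

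**Figure D5:**
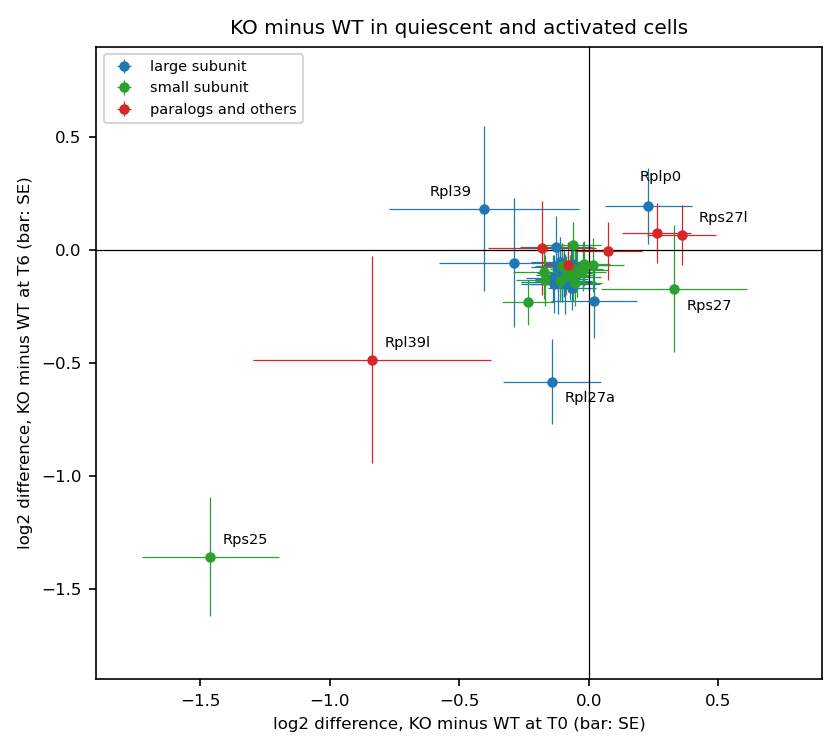
Log2 difference between KO and WT at T6 against that at T0 for the 47 tested members, with SE bars. Most members cluster just below 0 on each axis, and Rps25 stands apart at -1.46 and -1.36; no member was called at either time.

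Markers of other cells differed in the same arrays. All 15 tested B cell markers were higher in KO at each time (medians 0.67 and 1.32, 0 called), as were all 13 myeloid markers (0.52 and 0.92, 2 called at T6), while all 10 tested CD8 T cell markers were lower (-0.23 and -0.30, 0 called). The summed log2 signal of the B cell markers ran from 13.86 to 14.72 in WT T0, 14.67 to 15.46 in KO T0, 12.31 to 13.57 in WT T6 and 13.94 to 14.70 in KO T6. The 2 tested erythroid markers, Alas2 and Slc4a1, were further apart (medians 3.35 at T0 and 2.73 at T6, 0 called). Their summed log2 signal ran from 7.46 to 10.05 in WT T0, 10.38 to 13.81 in KO T0, 9.08 to 9.78 in WT T6 and 10.27 to 14.17 in KO T6. That of the CD8 markers ran from 16.63 to 16.88, 16.34 to 16.57, 16.26 to 16.44 and 15.78 to 16.10 in the same order. Not every list went 1 way. Klre1, the only NK cell marker tested, differed by 0.41 at T0 and -0.23 at T6. The 2 tested CD4 T cell markers had medians of -0.11 and 0.27, and 0 were called in either list. The part of all these cells in the ribosomal protein differences was not tested.

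No member was called for a difference in activation response between the genotypes. The interaction called 0 members and 0 of 13156 genes, beside 0 members and 604 genes at an unadjusted p under 0.05. For the 33 bright core genes it lay between -0.10 and 0.08, with intervals between -0.57 and 0.50. The members with the smallest p-values in this comparison were Rpl27a (-0.44, SE 0.27), Rps27l and Rps27, each with an adjusted p of 0.9997.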

How the data were processed

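The deposited values are linear signal intensities of Affymetrix probe sets, made by the authors with GCOS per the submitters' processing notes; background removal and summarisation are not given in the sources used here. All arrays shared 1 trimmed mean (500.003, between percentiles 2 and 98), with medians of 61.3 to 76.2. From these, log2(signal + 16) was computed. The added 16 understates changes of dim genes. A gene was represented by its brightest probe set with 1 symbol and kept when above percentile 40 on at least 3 of 12 arrays. The two-sided test was that of limma 3.58.1 (R 4.3.3; lmFit, then eBayes) on all 12 arrays with 4 group coefficients, adjusted by Benjamini-Hochberg. Precision is limited by the number of arrays. The test was checked on simulated data.

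The members, the gene lists and the rule for named genes were chosen with earlier results of these data known. Every member may be named. Values of each array were given for members that were called, for the 3 smallest p-values where fewer than 3 were called, for the tested paralogs, and for members whose probe sets differ in sign with one of them called. The WT values of Rpl35 and Rpl22 fall outside this rule: both genes were picked with their values known. From other lists up to 6 genes per comparison were to be named, by smallest p. This order was not kept throughout. Eef1a1 and Eef2 were named for activation, while Npm1, with a larger change and no overlap between the times, was not. Symbols came from the platform annotation, and chromosomes and sequences from RefSeq.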

Additional observations from a re-analysis of the deposited data

How the results depend on the processing

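The number of called members was compared over 25 to 26 alternatives for each comparison: other added constants (1 and 64), median centring, quantile normalization, no filter or one at percentile 60, probe sets averaged per gene, other choices of probe sets, a variance trend, a separate fit, a replicate block, genes of chromosome 9 left out, each array left out, and, added after the data were seen, the symbol rule read without the hyphen (31 genes, 30 tested, with 0, 0, 3 and 2 calls). KO against WT gave 0 calls throughout, except 1 (Rps25) at T6 with the variance trend. T6 against T0 in WT gave 3 and ran from 2 to 5; the 5 came without probe sets of the suffixes _s_at and _x_at. In KO it gave 3 and ran from 2 to 4. The 4 also came without these suffixes, with Rps9 risen too (0.32, limma adjusted p = 0.038) on its dimmer probe set described above. Leaving out each array gave 0 to 0 calls between the genotypes at T0 and at T6, 3 to 4 in WT, 2 to 3 in KO and 0 to 0 for the interaction. With the replicate block the calls were 0 at T0, 0 at T6, 4 in WT (Rpl37 fell too), 2 in KO (Rpl7l1 was lost) and 0 for the interaction. With 3 mice of each genotype and 3 arrays at each time, the T0 and T6 arrays of a genotype may come from the same mice. The main fit has no term for the mouse, and the labels do not say that equal replicate numbers share one. Between T0 and T6, the deviations of same-numbered arrays from their group means correlated at 0.23, -0.06 and -0.11 in WT and at 0.18, 0.46 and 0.38 in KO. Over single members 0 changes reversed among those called.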
